A study of Mus musculus with 58 samples.

Results

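Chromosome 8 was followed through every line and clone of a chromatin RNA study of X inactivation, by asking how much of its RNA came from each parental copy. The genes described are those of mouse chromosome 8 with at least 5 allele-assigned fragments in each of the 58 libraries. Of 1083 chromosome 8 genes in the count files, 584 met this rule and were kept, 3 met it but are among 6 genes left out by name, and the others had fewer fragments in at least 1 library. Over the whole genome, 10236 of 22556 genes had this minimum.

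The cells were hybrids of a 129S (Dom) and a Castaneus (Cast) mouse, so a fragment that covers a sequence difference can be assigned to one parental chromosome. Where both copies of an autosome are present and equally active, their RNA is close to balanced, and a gain or loss of one copy moves the share of nearly all of its genes in the same direction. Gain of chromosome 8 is a well-known change of mouse embryonic stem (ES) cells in culture. RNA was measured here and DNA was not, so a Dom share gives the balance between the alleles and not the number of copies.

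All cells were female XX ES cells in which the Xist promoter of the 129S X was replaced by one that responds to doxycycline. WT, with no further change, gave 4 libraries. SPOC cells carry point mutations in the SPOC domain of SPEN, a protein that Xist uses for silencing, and gave 2 libraries of clone C11, 4 of D9 and 4 of H1. In PCGF35 the Polycomb proteins PCGF3 and PCGF5 are degraded on addition of dTAG-13, and 8 libraries were treated and 8 untreated. PCGF35_SPOC combines both changes, with 8 libraries of clone F10 and 8 of F6, in each 4 treated and 4 untreated. DelPID lacks the Xist region that recruits Polycomb and gave 4 libraries, and DelPID_SPOC, named for that deletion with the SPOC mutation, gave 4 libraries of clone A8 and 4 of clone G3. The engineering label of the DelPID_SPOC libraries gives the Xist deletion alone, while the sample names and the study's list of cell lines give both clones the SPOC mutation as well. ES cultures were taken on day 0 (no doxycycline) and day 1, and cultures on the way to neural precursors (NPC) on days 3 and 6 of doxycycline. WT and DelPID are represented by NPC cultures and C11 by ES cultures. dTAG-13 was added at 100 uM according to the labels, 12 hours before doxycycline. Each clone is a single cell line with 1 library per day and treatment, so the spread given below is between cultures. For a clone these cultures are of different days and, outside C11, of both stages, so its SD also holds differences between days and stages. The study's supplement describes a DelPID_SPOC clone, called G there, as tetraploid, and the study lists A8 and G3 as the clones of that genotype. Copy ratios given below are thus relative to the other autosomes and are not numbers per cell.

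Depth ran from 2292261 to 30005305 counts per library, and 44.2% to 49.6% of counts were allele-assigned. The 2 shallowest libraries were DelPID replicate 1 on NPC days 6 and 3, with 2292261 and 6372321 counts. Summed ES markers (7 genes, of which Sox2 was listed at 0 in every library) were 1804 to 1813 CPM (a gene's counts scaled to a library of 1000000) in the ES libraries of G3, 1205 to 1229 in those of A8 and 903 to 1355 in the other ES libraries. In NPC cultures they were 973 to 1103 CPM in G3, 700.3 to 729.5 in A8 and 312 to 945 elsewhere, so G3 lay above all others at both stages. Their part in the results below was not tested. Summed neural precursor markers (6 genes, of which Sox1 was listed at 0 in every library and Fabp7 in the A8 ES libraries) were 54.4 to 91.6 CPM in G3, 55.4 to 96.5 in A8 and 27.3 to 403 in the other libraries. Summed fibroblast markers (8 genes, of which Lum was listed at 0 in the A8 and the G3 ES libraries), which feeder cells would bring, were 13.8 to 18.6 CPM in G3, 6.70 to 11.6 in A8 and 1.69 to 146 elsewhere. Because the samples are bulk cultures, fewer cells of a kind and less RNA per cell cannot be told apart.

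Chromosome 8 gave about 35% Dom RNA in every line and clone except G3, where the alleles were balanced. In G3 the Dom share of all allele-assigned fragments of the 584 genes was 50.8% in ES cells on day 0, 50.9% on day 1, 50.5% in NPC cultures on day 3 and 49.8% on day 6. In A8, the other clone of the same genotype, it was 35.2%, 35.5%, 35.3% and 34.9% on the same days. Each of the 54 libraries other than G3 lay between 34.4% and 36.8%, and no G3 library came near that range. Means were 50.5% ± 0.48 in G3 and 35.2% ± 0.23 in A8 (SD, n = 4 each). The 95% Wilson intervals, which cover counting error alone, were 49.6% to 50.03% for G3 on NPC day 6 and 35.3% to 35.7% for A8 on ES day 1, the closest libraries of the pair.

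The other lines and clones differed among themselves by little. Mean Dom shares were 34.98% ± 0.52 in WT (SD, n = 4), 35.3% ± 0.29 in SPOC D9 (n = 4), 35.3% ± 0.16 in SPOC H1 (n = 4) and 35.2% ± 0.13 in SPOC C11 (n = 2). They were 35.4% ± 0.25 in PCGF35 (n = 16), 35.7% ± 0.099 in PCGF35_SPOC F10 (n = 8), 35.1% ± 0.23 in PCGF35_SPOC F6 (n = 8) and 36.2% ± 0.59 in DelPID (n = 4). Ranked by mean, neighbouring lines and clones overlapped in their libraries. The highest values outside G3 were the 2 replicate 2 libraries of DelPID, at 36.7% and 36.8%, against 35.7% and 35.8% in the shallower replicate 1. The share overlapped between culture stages: the 24 ES libraries outside G3 had 34.9% to 35.8% and the 30 NPC libraries 34.4% to 36.8%.

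**Figure D1:**
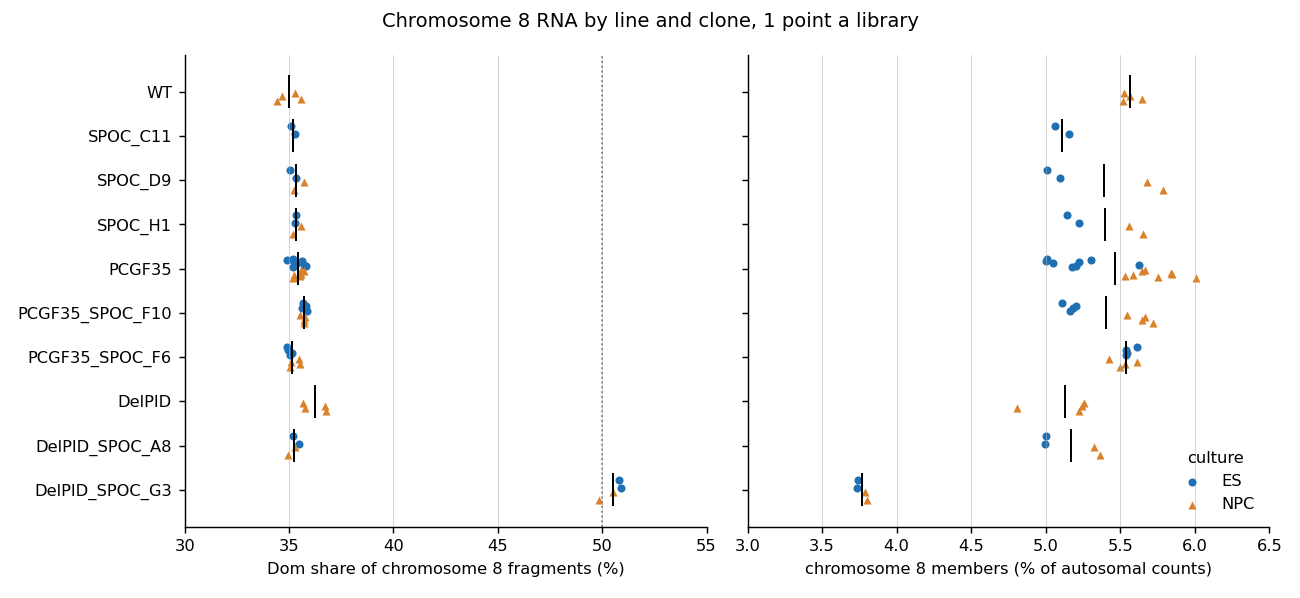
Dom share of the fragments of 584 chromosome 8 genes (left, %) and the summed counts of these genes as a percentage of all autosomal counts (right) in each library, by line and clone, with ES (blue circles) and NPC cultures (orange triangles) apart and a black bar at the mean. The 4 G3 libraries lie at 49.8% to 50.9% and 3.74% to 3.80%, and the 54 others at 34.4% to 36.8% and 4.81% to 6.01%.

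A baseline for these shares came from the other autosomes. The median Dom share over the 18 other autosomes ran from 51.7% to 53.3% in all 58 libraries, and its mean outside G3 was 52.4%. Scaled from that baseline, 1 Dom copy beside 2 Cast copies would give 35.5% by arithmetic, and 1 of each 52.4%. Equal doses without that baseline would give 50.0% and 33.3%. These are the shares that such copy ratios imply, and the count of copies itself was not measured.

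Few other autosomes separated G3 from A8. The G3 share exceeded the A8 share by 15.3 percentage points on chromosome 8, while on the other 18 autosomes the difference ran from -5.86 to 4.18, with a median of 0.11. The lower end was chromosome 6, with 46.5% ± 0.51 in G3 and 52.4% in A8. The upper end was chromosome 17, with 50.5% ± 0.82 in G3 and 46.3% in A8 (SD, n = 4). On chromosome 16 the share ranged from 24.8% to 50.8% within G3, from 32.3% to 49.6% within A8 and from 15.05% to 52.2% over all libraries outside G3. Chromosome 12 had 34.01% in G3 and 33.7% in A8, and 32.7% to 35.7% in all libraries outside G3, so it was skewed to Cast in each of them.

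**Figure D2:**
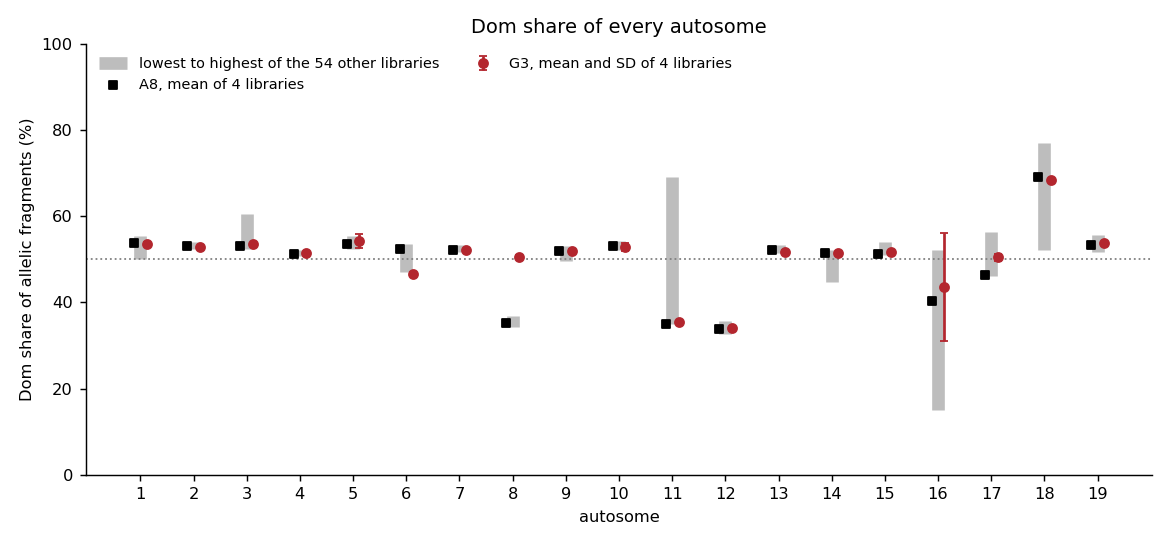
Dom share of allele-assigned fragments (%) of each autosome, as the mean of the 4 A8 libraries (black squares), the mean and SD of the 4 G3 libraries (red circles) and the range of the 54 libraries other than G3 (grey bars). Chromosome 8 is at 50.5% in G3 and 35.2% in A8, with the other libraries at 34.4% to 36.8%.

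The shift of G3 extended along the whole chromosome. In 13 consecutive windows of 10 Mb (mm10), all 4 G3 libraries lay above all 54 others, and these windows hold all 584 genes, from 3150921 to 129234046. Window shares ran from 44.5% to 54.8% in G3 and from 30.4% to 38.5% in A8. The lowest G3 window was 30 to 40 Mb, with 44.5% ± 0.52 in G3 and 30.4% in A8, and the highest was 110 to 120 Mb, with 54.8% ± 1.75 and 37.2% (SD, n = 4). Windows low in G3 were mostly low in A8 as well. The median difference per gene, as the log2 of the odds of a Dom against a Cast fragment, was smallest at 60 to 70 Mb (0.74) and largest at 110 to 120 Mb (1.04). A doubling of the odds is 1 on this scale.

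**Figure D3:**
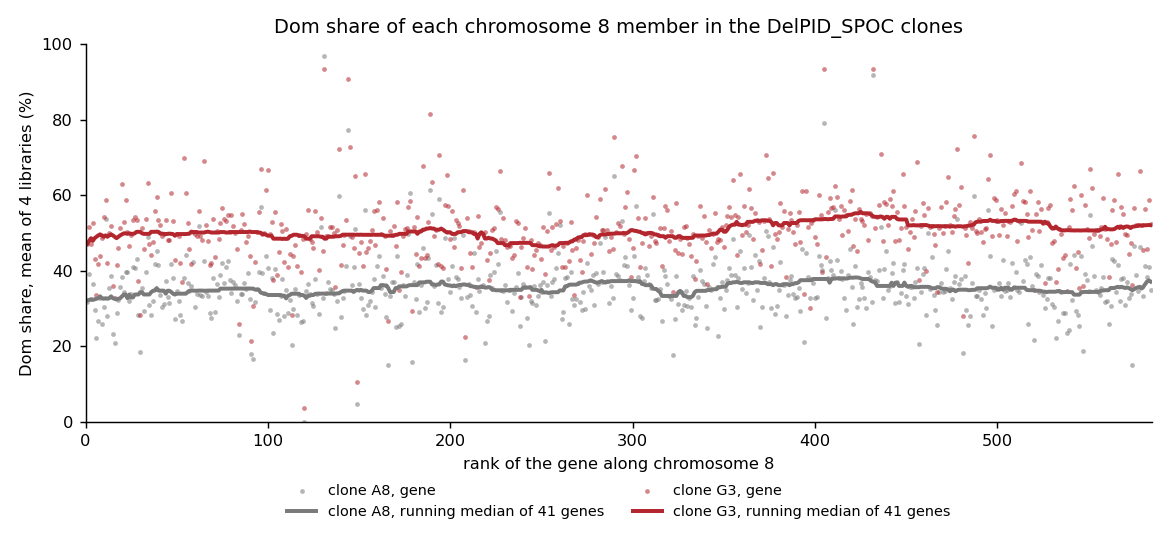
Dom share (%, mean of 4 libraries) of each of 584 genes in the order of the chromosome, in clone G3 (red) and clone A8 (grey), with a running median of 41 genes. The G3 line stays above the A8 line from end to end, and the medians over all genes are 50.5% and 35.3%.

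Gene by gene, almost every chromosome 8 gene had a higher Dom share in G3 than in A8. By the quasi-likelihood test of edgeR on paired allele counts, 505 of 584 genes rose at an adjusted p under 0.05 and 0 fell (553 passed an unadjusted p under 0.05 in either direction, and limma on the log2 odds called 489 higher). Over all 10236 genes tested, 8.23% were called higher and 4.23% lower, and on the other autosomes 3.30% were called higher. The median log2 odds difference was 0.91 over the chromosome 8 genes and 0.02 over all genes. All 4 G3 libraries lay above all 4 A8 libraries in 474 of the 584 genes, against 8.62% of all genes tested and 4.07% of those on the other autosomes. They lay below them in 0, against 4.7% of all genes tested. The 79 genes not called had a median of 75.2 allele-assigned fragments per library and the 505 called a median of 371. Of these 79, 75 had a positive difference.

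Against the mean of the other 9 lines and clones, which shares the G3 libraries with the comparison above, 549 of 584 genes rose and 0 fell, with a median log2 odds difference of 0.90. Of all genes tested, 14.5% were called higher and 15.2% lower in that comparison, and the median was 0.01. Chromosomes 18 and 11 hold many of these calls: 92.5% of 292 genes were called higher on chromosome 18 (median 0.69) and 97.8% of 848 lower on chromosome 11 (median -1.04). On these 2 chromosomes the Dom share of G3 was close to that of A8, with 68.5% and 69.2% on chromosome 18 and 35.4% and 35.1% on chromosome 11. A one-sided shift against the other lines was thus not particular to chromosome 8, while against A8 2.74% of chromosome 18 genes were called higher and 0.71% of chromosome 11 genes lower. Other autosomes did have many calls against A8. On chromosome 6, 35.5% of genes were called lower and 1.40% higher (median -0.15). On chromosome 17, 29.6% were called higher and 13.2% lower (median 0.10). In 339 genes of chromosome 8 all 4 G3 libraries exceeded all 54 others. Over all 10236 genes this held in 345 (3.37%), these 339 included. The middle range of the gene shares was 46.6% to 55.1% in G3 (lower to upper quartile), 31.7% to 39.3% in A8 and 32.2% to 38.6% over the libraries outside G3. At or over 50% were 317 genes in G3 and 23 outside it.

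With the genes divided by position into 5 groups of equal size, the one with the most allele-assigned fragments in each group showed the shift in single libraries. Chd9, which encodes a chromatin-remodelling helicase (90828834 to 91054508, plus strand), had Dom shares of 45.6%, 44.4%, 45.04% and 46.4% in G3 on ES days 0 and 1 and NPC days 3 and 6. In A8 it had 32.3%, 31.9%, 28.9% and 28.3%, and over the 54 libraries outside G3 23.9% to 32.3%. The groups did not overlap, and the log2 odds difference from A8 was 0.93 (SE 0.049, adjusted p = 3.3e-23, edgeR).

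Rbpms (33782643 to 33929863, minus strand) encodes an RNA-binding protein and started from a lower share. It had 39.9%, 39.4%, 40.3% and 38.97% in G3 and 26.6%, 25.3%, 27.1% and 26.3% in A8 on the same days. Its difference was nonetheless of the same size as that of Chd9, 0.88 on the log2 odds scale (SE 0.045, adjusted p = 2.0e-23, edgeR). Pard3 (127064055 to 127612286, plus strand), a gene of cell polarity, had 57.5%, 57.4%, 55.6% and 55.2% in G3 and 40.4%, 42.1%, 40.8% and 41.4% in A8, a difference of 0.89 (SE 0.041, adjusted p = 9.5e-26, edgeR).

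Large (72814598 to 73352556, minus strand), a glycosyltransferase gene acting on dystroglycan, had 49.9%, 49.99%, 51.3% and 48.0% in G3 and 35.6%, 36.2%, 35.9% and 35.7% in A8. Ankrd10 (11611580 to 11635757, minus strand) had 25.9%, 27.96%, 29.3% and 29.6% in G3 and 18.6%, 19.7%, 17.5% and 18.5% in A8. Ankrd10 was thus mostly Cast in both clones and still higher in each G3 library. Outside G3 it reached 29.1%, so it overlapped with G3 when all libraries were taken. Log2 odds differences from A8 were 0.83 (SE 0.061) for Large and 0.78 (SE 0.15) for Ankrd10, with adjusted p values of 5.0e-17 and 2.7e-05 (edgeR).

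Among genes with at least 20 allele-assigned fragments in every library and no overlap between G3 and A8, the largest rises went past a doubling of the odds. Zfp821, a zinc finger gene, had 71.3%, 73.03%, 60.3% and 70.3% Dom in G3 and 42.9%, 39.7%, 38.3% and 41.4% in A8. Adat1, which encodes a tRNA-editing adenosine deaminase, had 61.6%, 63.97%, 61.7% and 61.1% against 36.2%, 30.3%, 43.2% and 41.7%. Map2k7, a kinase of the JNK pathway, had 56.1%, 55.4%, 54.6% and 50.3% against 24.1%, 32.4%, 33.4% and 31.7%. Their log2 odds differences were 1.62 (SE 0.21), 1.40 (SE 0.13) and 1.39 (SE 0.16), and the groups of 4 did not overlap in any of the 3 genes. The adjusted p values were 1.3e-08, 3.4e-13 and 3.2e-10 (edgeR). Cdh13, a cadherin gene, differed by 1.74 (SE 0.26), with 60.5% to 77.5% in G3 and 36.96% to 55.1% in A8, but its shares ran from 23.8% to 73.6% over the libraries outside G3. Pcnxl2 differed by 1.64 (SE 0.30), from 30.6% to 43.2% in G3 and from 2.17% to 25.8% in A8.

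Against the other lines and clones, the same rule named Cdh13 and Zfp821 again, with 1.51 (SE 0.18) and 1.42 (SE 0.17), and 3 further genes. Rpgrip1l, a gene of the ciliary transition zone, had 62.3%, 60%, 68.9% and 66.8% in G3 and a mean of 36.1% outside it, but A8 alone had 47.98% to 50.6%. Its difference from A8 was 0.87 (SE 0.11) and from the mean of the others 1.60 (SE 0.084). Cdh3, which encodes P-cadherin, had 66.4% to 76.3% in G3 and at most 54.7% outside it. Galnt2, which encodes an enzyme that starts O-linked glycosylation, had 58.3% to 60.3% in G3 and at most 41.4% outside it, a difference of 1.37 (SE 0.051) from the mean of the others.

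A few genes had nearly all fragments from one allele in every line. Mean Dom shares outside G3 were under 10% in 2 genes and over 90% in 1. Nfatc3, a transcription factor of calcium signalling, had 91.2% outside G3 and 93.4% in G3, and Sorbs2os had 7.58% and 10.5%. Mboat4, the ghrelin acyltransferase gene, had 0.70% outside G3 and 3.56% in G3. The 4 genes with a lower fitted odds in G3 than in A8 were 6430573F11Rik, Sgcz, Galntl6 and Cdh8, named after their values were seen, and none was called. Their adjusted p values ran from 0.14 for Sgcz to 0.97 for 6430573F11Rik (edgeR). Sgcz had 91.2% to 95.3% in G3 and 94.5% to 98.6% in A8.

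The total amount of chromosome 8 RNA was lower in G3. The 584 genes made up 3.74% of autosomal counts in G3 on ES days 0 and 1, 3.79% on NPC day 3 and 3.80% on NPC day 6. In A8 they made up 5.00%, 4.99%, 5.33% and 5.36%. The other libraries outside G3 had 4.99% to 5.62% in ES cells and 4.81% to 6.01% in NPC cultures, so no library of any other line overlapped with G3. The G3 level was 0.73 ± 0.022 of the A8 level (SD over 4 days) and 0.70 of the mean of all libraries outside G3. On the other 18 autosomes the ratio of G3 to A8 ran from 0.93 (chromosome 17) to 1.18 (chromosome 6), with a median of 1.01. Going from 3 copies to 2, relative to the other autosomes, would give 0.67 by arithmetic.

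Levels outside G3 were higher in NPC than in ES cultures, with means of 5.55% (n = 30) and 5.21% (n = 24). This held within SPOC D9, SPOC H1, PCGF35, PCGF35_SPOC F10 and A8. PCGF35_SPOC F6 had 5.54% to 5.61% in ES and 5.42% to 5.61% in NPC cultures, and so showed no such rise. G3 rose by less than any of those 5, from a mean of 3.74% to 3.79% (n = 2 each), and this difference between clones was not tested for the summed level.

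The lower level of G3 was on the Cast side. Cast fragments of the 584 genes per 1000000 autosomal counts were 9574, 9448, 9469 and 9429 in G3 on ES days 0 and 1 and NPC days 3 and 6, and 16090, 16000, 17270 and 17480 in A8. Dom fragments were 9884, 9791, 9663 and 9367 in G3 and 8738, 8803, 9416 and 9383 in A8. Cast fragments in G3 were thus below each of the other libraries on each day, whose lowest values were 15490, 15990, 16720 and 15450. Dom fragments in G3 lay within the range of the other libraries on all 4 days. The ratio of G3 to A8 was 0.57 ± 0.028 for Cast and 1.07 ± 0.065 for Dom fragments (SD over 4 days). By day, the Dom ratio was 1.13, 1.11, 1.03 and 0.998 and the Cast ratio 0.59, 0.59, 0.55 and 0.54, so both were lower in NPC cultures.

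Per gene, the G3 to A8 difference was also compared between NPC and ES cultures, a fit added after seeing the data. In Dom share 0 chromosome 8 genes were called (40 at an unadjusted p under 0.05, edgeR), and of all genes 0.0% were called higher and 0.00977% lower. In total counts 1 chromosome 8 gene was called, 1190005I06Rik, and of all genes 0.0616% were called higher and 0.271% lower.

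**Figure D4:**
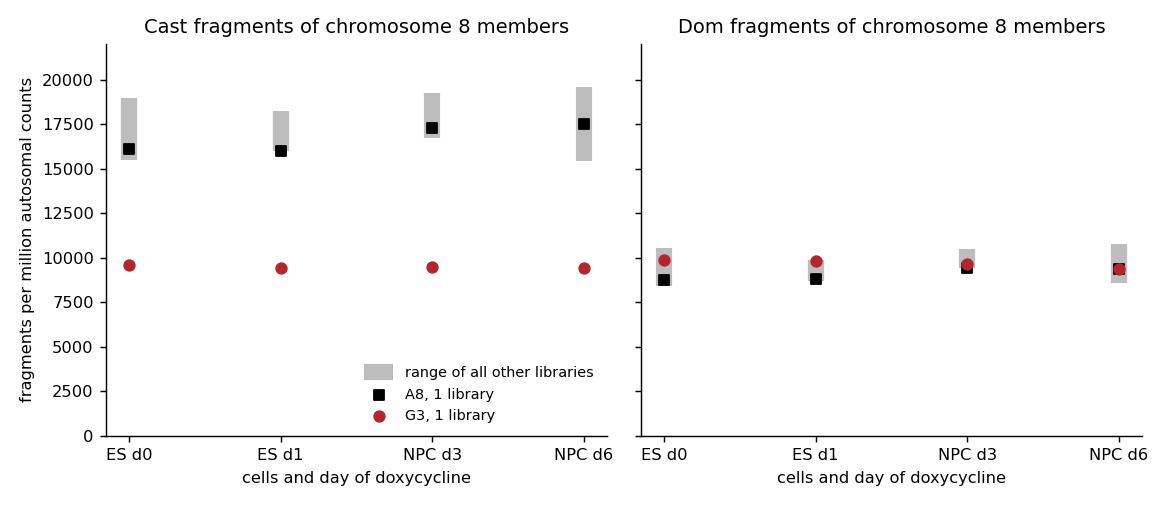
Cast (left) and Dom fragments (right) of 584 chromosome 8 genes per 1000000 autosomal counts by culture and day, for the single library of G3 (red circles) and A8 (black squares) and the range of all libraries other than G3 (grey bars). Cast fragments in G3 are 9429 to 9574, below all others, and Dom fragments, at 9367 to 9884, lie inside the range of the others.

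Fits of each allele alone, chosen after seeing the data, gave the same picture per gene. Of 584 genes tested for Cast fragments, 468 fell and 3 rose in G3 against A8, with a median log2 fold change of -0.89. Of all 13675 genes tested, 6.9% were called lower and 7.75% higher. Of 583 genes tested for Dom fragments, 13 fell and 33 rose, with a median of 0.01, and over all 13801 genes 1.46% were called lower and 4.43% higher. Dom counts of chromosome 8 thus stood near the background of the genome, while Cast counts did not. Both directions together, 447 genes fell in Cast fragments without a call in Dom fragments. Against the mean of the other lines and clones, Cast fragments fell in 524 genes and rose in 4 (background 10.9% lower and 16.8% higher), and Dom fragments fell in 37 and rose in 56 (background 9.95% and 12.5%).

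**Figure D5:**
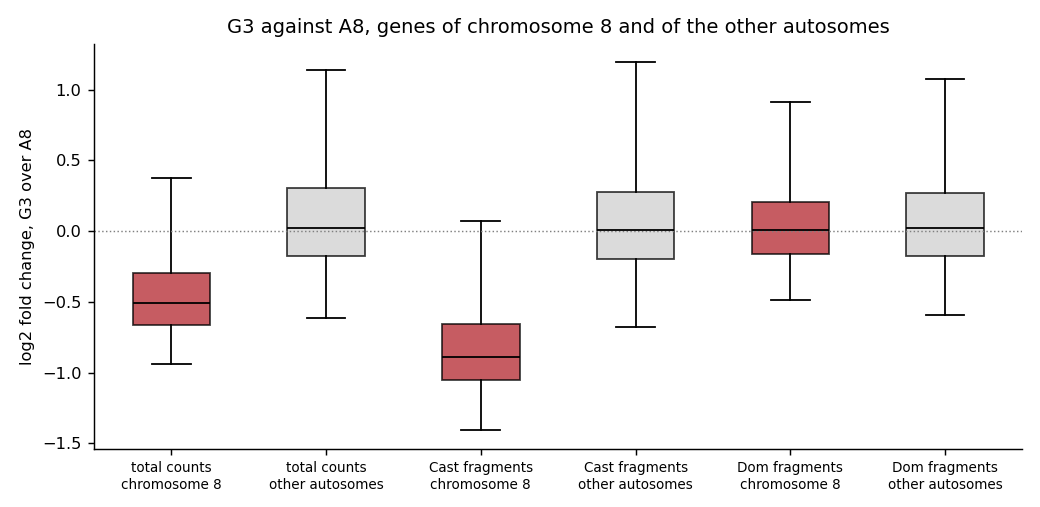
Log2 fold change of G3 over A8 for total counts, Cast fragments and Dom fragments, in genes of chromosome 8 (red) and genes of the other autosomes (grey), with boxes from the lower to the upper quartile, a line at the median and whiskers from the 5th to the 95th percentile. Chromosome 8 medians are -0.51 for total counts, -0.89 for Cast and 0.01 for Dom fragments, and those of the other autosomes are 0.02, 0.01 and 0.02.

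In total counts, 354 of 584 genes fell and 8 rose in G3 against A8 (edgeR's quasi-likelihood test after TMM scaling). Of all 16227 genes tested, 6.04% were called lower and 8.18% higher. The median log2 fold change was -0.51, or 0.70-fold, and that of all genes 0.00.  Of the 354 genes that fell, 321 also rose in Dom share, where 86.5% of all 584 genes rose. Against the mean of the other lines and clones, 443 genes fell and 7 rose (background 11.1% and 15.3%), with a median of -0.52 beside 0.02 for all genes.

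The Dom shift and the fall in total counts were also described by gene length and expression, with no test between groups. In 3 groups of equal size by length, median log2 odds differences were 0.91, 0.88 and 0.93 from short to long genes. Median log2 fold changes of total counts were -0.60, -0.54 and -0.31 in the same order, with 131 of 195, 142 of 194 and 81 of 195 genes called lower. Genes of the other autosomes with the same allelic minimum and the same length limits had medians of -0.10, -0.03 and 0.09, so a trend with length was present there as well. In such groups by mean CPM in A8, median odds differences were 0.92, 0.91 and 0.90 from low to high, with 125 of 195, 189 of 194 and 191 of 195 genes called. Median log2 fold changes of total counts were -0.45, -0.56 and -0.51 in these groups.

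The largest falls were in genes of modest expression. Hmox1, which encodes haem oxygenase 1, had 11.03, 10.5, 11.8 and 12.2 CPM in G3 and 32.7, 25.5, 36.8 and 32.95 CPM in A8, with no overlap. It fell by 1.49 on the log2 scale (SE 0.20, adjusted p = 1.8e-07, edgeR). Herpud1, a gene of endoplasmic reticulum stress, had 6.60, 5.68, 6.84 and 9.60 CPM against 16.8, 14.6, 18.9 and 20.1 CPM, a change of -1.34 (SE 0.21, adjusted p = 3.5e-06, edgeR). In both genes Dom fragments fell as well, by 0.99 and 0.97 on the log2 scale, beside falls of 2.00 and 1.81 for Cast fragments. Mfap3l had 14.7 to 16.96 CPM in G3 and 31.4 to 55.5 in A8 (-1.41, SE 0.24), and C330021F23Rik had 2.82 to 7.50 and 10.7 to 12.3 CPM (-1.40, SE 0.26). The largest change, -1.80 (SE 0.29), was that of 1190005I06Rik, with 2.31 to 2.87 CPM in G3 and 4.68 to 17.0 in A8. Against the other lines and clones the rule named 6820431F20Rik in place of Hmox1, with 41.2 to 47.7 CPM in G3 and 90.2 to 105 in A8. It fell by 1.24 on the log2 scale (SE 0.071, adjusted p = 6.5e-19, edgeR). Its Dom share, 39.2% to 44.7% in G3 and 33.6% to 37.4% in A8, was not called (adjusted p = 0.072, edgeR).

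The 8 genes that rose in total were Myo16, Unc5d, Sorbs2os, Spock3, Cpe, Rnf150, Disc1 and Nrp1, of which Rnf150, Cpe and Nrp1 follow the naming rule and the others were named after their values were seen. Rnf150, a RING finger gene, had 24.03, 20.8, 17.2 and 21.5 CPM in G3 and 4.15, 3.30, 8.07 and 10.97 CPM in A8, and rose by 2.01 on the log2 scale (SE 0.37, adjusted p = 7.1e-05, edgeR). Both of its alleles rose, by 1.16 for Cast and 2.63 for Dom fragments. Cpe, which encodes the prohormone-processing carboxypeptidase E, had 9.10 to 19.8 CPM in G3 and 3.19 to 5.59 in A8 (1.68, SE 0.46). Nrp1, a receptor for semaphorins and VEGF, had 5.47 to 11.8 CPM in G3 and 2.88 to 4.30 in A8 (1.42, SE 0.39). The adjusted p values of Cpe and Nrp1 were 0.0084 and 0.0093 (edgeR), and Cpe was not called in the fit without the G3 library of ES day 0 and Nrp1 was not called in that fit nor in the one without the A8 library of NPC day 6. This count of rises was 3 without the G3 library of ES day 0 and 4 without that of ES day 1.

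Chromatin and transcription regulators (31 genes listed, 27 measured) all had a higher Dom share in G3 than in A8, and 18 fell and 0 rose in total counts. Over all chromosome 8 genes 86.5% were called higher in Dom share and 60.6% lower in total counts, and over all genes tested 8.23% and 6.04%, so each of the 4 lists described here is to be read against those shares. Their medians were 52.9% Dom in G3 and 35.4% in A8, and -0.51 for the log2 fold change of total counts. Ankrd11, which encodes a partner of histone deacetylases, had 49.4% to 50.2% Dom in G3 and 33.6% to 35.0% in A8, and fell from 895 to 1357 CPM in A8 to 657 to 812 in G3 (-0.61, SE 0.13, adjusted p = 0.00086, edgeR). Cnot1, the scaffold of the CCR4-NOT deadenylase, had 46.1% to 48.6% and 32.6% to 33.7% Dom, and fell by 0.46 on the log2 scale (SE 0.080). Chd9 fell by 0.91 (SE 0.15). Tfdp1, a partner of E2F factors, had 49.2% to 54.6% and 33.04% to 34.5% Dom and fell by 0.41 on the log2 scale (adjusted p = 0.038, edgeR), a call lost in 6 of the 8 fits that leave out 1 library of G3 or A8.

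Of the genes for replication, cell cycle and DNA repair (19 listed and measured), 18 rose in Dom share and 14 fell in total counts, with 0 changes the other way and a median log2 fold change of -0.55, beside the 86.5% and 60.6% called over all chromosome 8 genes. The gene not called in Dom share was Mphosph6. Pcm1, a gene of centriolar satellites, had 45.6% to 48.2% Dom in G3 and 32.3% to 33.2% in A8, and fell by 0.55 (SE 0.12, adjusted p = 0.00062, edgeR). Fanca, a subunit of the Fanconi anaemia core complex, fell by 0.80 (SE 0.097, adjusted p = 3.6e-08, edgeR), with 66.9 to 86.7 CPM in G3 and 119 to 132 in A8. Its Dom share was 37.9%, 42.03%, 54.6% and 45.4% in G3 and 25.9%, 24.8%, 30.7% and 31.4% in A8. Nek1, a kinase gene, fell by 0.56 (SE 0.17, adjusted p = 0.016, edgeR), but was not called without the A8 library of either ES day or the G3 library of NPC day 3. Mcm5, a subunit of the replicative helicase, had 53.4% to 55.1% and 38.7% to 40.8% Dom, and its total change of -0.31 was not called (adjusted p = 0.063, edgeR).

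Receptors, adhesion and signalling genes (22 listed and measured) rose in Dom share in 19 cases, and 7 fell and 1 rose in total counts, with a median log2 fold change of -0.27, beside -0.51 and 60.6% called lower over all chromosome 8 genes. Those not called in Dom share were Cdh11, Nfatc3 and Nrp1. Wwox, an oxidoreductase gene, had 49.3% to 53.3% Dom in G3 and 33.1% to 39.9% in A8, and its total change of -0.22 was not called (adjusted p = 0.50, edgeR). Gab1, a docking protein of receptor kinases, had 59.6% to 61.9% and 40.4% to 41.9% Dom and fell by 0.48 (SE 0.15, adjusted p = 0.023, edgeR), but was not called without the A8 library of NPC day 6 or the G3 library of NPC day 3. Nfat5, a factor of the osmotic stress response, had 50.2% to 52.8% and 33.6% to 34.5% Dom. Its total change was -0.14 (adjusted p = 0.52, edgeR), since Cast fragments fell by 0.57 and Dom fragments rose by 0.45 on the log2 scale. Cmip, an adaptor gene, had a total change of -0.27 (adjusted p = 0.41, edgeR).

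Of the genes for metabolism, translation and protein turnover (26 listed, 25 measured), all 25 rose in Dom share, and 23 fell and 0 rose in total counts, beside 86.5% and 60.6% of all chromosome 8 genes. The median log2 fold change of total counts was -0.75, and the difference from the other lists was not tested. Tomm20, the receptor of the mitochondrial import complex, had 219, 210, 228 and 230.5 CPM in G3 and 500.4, 454, 372 and 377 CPM in A8, with no overlap (-0.94, SE 0.15, adjusted p = 1.0e-05, edgeR). Usp10, a deubiquitinase gene, fell by 0.67 (SE 0.11), Asah1, the acid ceramidase gene, by 0.66 (SE 0.15), and Wwp2, a ubiquitin ligase gene, by 0.40 (SE 0.10). Their Dom shares were 51.8% to 54.1%, 48.05% to 51.3% and 50.3% to 52.6% in G3, and 35.9% to 38.4%, 34.2% to 35.5% and 32.3% to 35.2% in A8.

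No other line or clone departed from the rest in this way. In Dom share, each was compared with the mean of the other 8 without G3, and the median log2 odds difference of the 584 genes ran from -0.04 (WT) to 0.09 (DelPID). In WT, 6 genes were called higher and 7 lower (1.63% and 4.47% of all genes tested). SPOC D9 had 7 genes called higher and 3 lower, beside 2.9% and 4.98% of all genes. For SPOC H1 the counts were 4 higher and 5 lower, with 1.33% and 5.3% over all genes. These are lines with few calls on chromosome 8 in either direction. In SPOC C11, 4 genes were called higher and 8 lower (0.567% and 9.04% of all genes tested). PCGF35 had 22 genes called higher and 31 lower, beside 14.0% and 9.0% of all genes. For PCGF35_SPOC F10 the counts were 31 higher and 33 lower, with 15.4% and 8.22% over all genes. These counts, like those of WT, D9 and H1, were mostly below the background. In PCGF35 and both PCGF35_SPOC clones that background includes the 848 genes of chromosome 11. The Dom share of that chromosome was 68.2% to 69.2% in their libraries and 34.9% to 55.2% in all other libraries. In PCGF35_SPOC F6, 15 genes were called higher and 30 lower (12.5% and 6.62% of all genes tested). A8 had 24 genes called higher and 23 lower, beside 8.22% and 12.3% of all genes. For DelPID the counts were 72 higher and 4 lower, with 11.1% and 9.86% over all genes. DelPID had the most one-sided counts of the 9. Its 2 shallowest libraries, replicate 1, had 35.7% and 35.8% Dom, and the deeper replicate 2 had 36.7% and 36.8%. Its higher calls were near the background, which here includes the 292 genes of chromosome 18. The Dom share of that chromosome was 71.8% to 77.0% in DelPID, and 52.2% to 53.7% in the libraries without the Xist deletion.

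In total counts the shares of chromosome 8 genes called in these lines lay on both sides of those of all genes. Median log2 fold changes against the rest ran from -0.07 (DelPID) to 0.04 (WT). In WT, 14 genes were called higher and 3 lower (2.51% and 2.72% of all genes tested). SPOC C11 had 12 genes called higher and 14 lower, beside 3.59% and 3.75% of all genes. For SPOC D9 the counts were 33 higher and 17 lower, with 5.4% and 4.63% over all genes. C11 is represented by ES cultures alone and WT by NPC cultures. In SPOC H1, 30 genes were called higher and 6 lower (3.48% and 3.7% of all genes tested). PCGF35 had 120 genes called higher and 100 lower, beside 20.5% and 16.6% of all genes. For PCGF35_SPOC F10 the counts were 100 higher and 101 lower, with 19.6% and 16.4% over all genes. The last 2 lines had many calls over the whole genome. In PCGF35_SPOC F6, 122 genes were called higher and 80 lower (16.4% and 13.4% of all genes tested). DelPID had 26 genes called higher and 55 lower, beside 8.51% and 5.63% of all genes. For A8 the counts were 33 higher and 67 lower, with 11.6% and 9.0% over all genes. SPOC C11, PCGF35_SPOC F10, DelPID and A8 had more genes lower than higher, by little in C11 and F10. In G3 set against A8, which is a different comparison, 354 genes were lower and 8 higher.

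Single genes stood out in some of these lines. Triml2 and Triml1, neighbouring genes of the TRIM family, had the largest Dom share differences in both WT and SPOC D9. Triml2 had 75.4% to 95.7% in WT, 67.3% to 95.2% in D9 and 37.6% to 95.7% over all libraries outside G3, so these ranges overlapped, and differed by 0.92 (SE 0.20) and 1.15 (SE 0.16). In G3 it had 64.9%, 64.01%, 76.98% and 84.7%. Col4a1, a basement membrane collagen gene, had 32.3 to 3403 CPM in PCGF35 and 29.9 to 48.5 CPM in PCGF35_SPOC F6, with log2 fold changes of 1.75 (SE 0.40) and -1.36 (SE 0.51) against the rest. Its neighbour Col4a2 had 19.1 to 1635 CPM in PCGF35 (1.56, SE 0.40), and in G3 the 2 genes had means of 93.3 and 71.7 CPM.

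In PCGF35_SPOC F10, Fam155a had 37.7 to 182 CPM and Cdh13 53.9 to 147 CPM, rises of 3.46 (SE 0.35) and 2.54 (SE 0.23), and March1 had a lower Dom share by 1.54 on the log2 odds scale. In F6, Gpm6a had a higher Dom share, by 0.71 (SE 0.13), and Tll1 a lower total, by 1.70 (SE 0.32). In DelPID the largest Dom share differences were in Cdh11 (4.00, SE 0.56) and Pdgfrl (2.54, SE 0.49), which had as few as 6 and 13 allele-assigned fragments in a library. A8 differed in Sgcz (1.83, SE 0.53) and Csmd1 (-1.69, SE 0.47) in Dom share and in Cpe (-1.74, SE 0.39) and Vat1l (-1.54, SE 0.44) in total. Sgcz and Csmd1 had as few as 13 and 8 allele-assigned fragments in a library, and their A8 shares lay inside the range of the rest. SPOC H1 had Dom share differences of 0.50 (SE 0.11) in Palld and 0.48 (SE 0.15) in E2f4, and lower totals of Cdh13 and Gpm6a.

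Degradation of PCGF3 and PCGF5 left the Dom share of chromosome 8 within the spread of the cultures. The 8 untreated PCGF35 libraries had 34.9% to 35.7% (median 35.5%) and the 8 treated with dTAG-13 35.2% to 35.8% (median 35.3%), so the groups overlapped. No chromosome 8 gene was called in Dom share (36 at an unadjusted p under 0.05) or in total counts (61), by edgeR. Of all genes, 0.274% were called higher and 0.0% lower in Dom share, and 0.0132% higher and 0.0263% lower in total counts. The levels were 5.00% to 5.85% and 5.05% to 6.01% of autosomal counts. Replicate numbers pair treated and untreated cultures, and with them as a block 5 chromosome 8 genes were called in total counts and 0 in Dom share, where 1.20% and 0.459% of all genes were called. These 5, named after their values were seen, were Cngb1, Disc1 and Atp11a, higher with dTAG-13 in 8 of 8 pairs by 0.51 (SE 0.10), 0.38 (SE 0.075) and 0.19 (SE 0.038) on the log2 scale, and Slc9a5 and Rnf122, higher in 0 of 8 pairs, at -0.49 (SE 0.087) and -0.40 (SE 0.078). Their adjusted p values with the block ran from 0.034 to 0.042 (edgeR).

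Genes at the edge of the rule were also described. The 18 genes whose lowest library held exactly 5 fragments had a median Dom share of 54.8% in G3 and 42.1% in A8, and the 18 genes whose lowest library held 4, which were not kept, had 46.98% and 28.7%. The chromosome 8 genes neither kept nor left out by name had summed shares of 48.9% to 51.5% in G3 and 32.6% to 40.03% outside it. The 10 genes with the most fragments held 15.5% to 23.6% of the fragments, and without them the share was 50.4% to 51.7% in G3 and 34.7% to 37.6% outside it.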

How the data were processed

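Chromatin RNA was sequenced in 58 cultures. As the labels and methods state, the authors filtered out ribosomal reads (Bowtie2 2.3.2), aligned pairs to N-masked mm10 (STAR 2.4.2a), split them by allele and took stranded fragment counts of whole transcripts, introns included (featureCounts 1.5.2). The deposited counts are raw, 1 column each for all, Cast and Dom fragments. Columns were read as Cast and Dom from Xist, whose fragments after induction were 79.4% to 99.96% from the second allele, which carries the inducible promoter. A deposited table of X-linked ratios was not used here.

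Groups came from the labels. The chromosome 8 genes, gene lists and comparisons were chosen with earlier results of these data known. Dom share was tested with edgeR's quasi-likelihood test (edgeR 4.0.16, R 4.3.3) on both allele counts of all 58 libraries, with terms for library, allele, and allele by day, dTAG-13 and line or clone. Total counts were tested after filterByExpr and TMM with day, dTAG-13 and line or clone. PCGF35 was fitted alone. P values were adjusted by Benjamini-Hochberg over all genes, at 0.05. Dom fragments and Cast fragments were also fitted apart with the scaling of total counts, and the G3 to A8 difference was compared between NPC and ES cultures. These fits were added after seeing the data. The tests of Dom share and of total counts between G3 and A8 were tested on simulated data, and the other fits were not. For Dom share, 74% of 0.5-fold and 75% of 2-fold changes of the odds were recovered, and 9.7% of calls were false. For total counts, 72% of 0.5-fold and 68% of 2-fold changes were recovered, and 2.6% of calls were false. Of 0.75-fold and 1.33-fold changes in total counts, 4% and 6% were recovered, so changes of that size were mostly missed in the simulation. The simulated total counts had the same spread between libraries in every gene, which was not estimated from the data. These rates of recovery for total counts thus need not hold for the data. There, 354 of 584 chromosome 8 genes were called lower against A8, with a median of 0.70-fold over all 584. Named genes were up to 4 per list with most allele-assigned fragments, the largest called changes of G3 (5 with the chromosome and 3 against it, with 20 allele-assigned fragments in every library or a mean of 5 CPM and no overlap between G3 and A8), the gene with most fragments in each of 5 equal groups by position, and 2 per other line or clone.

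Libraries of the same group differed by more than counting error (chi-square per degree of freedom 10.6 to 41.9 in 12 pairs). Nothing states that cultures of a clone are independent derivations, so p values measure the spread between cultures. PCGF35 replicate numbers pair treated and untreated cultures: deviations from the group means correlated by 0.32 to 0.78 on each of the 4 days. Intervals of shares are 95% Wilson bounds, for counting error alone. Alternatives used limma 3.58.1, with 0.5 added to each allele count, and DESeq2 1.42.0. Spen, the mutated gene, had 258 to 574 CPM in G3 and 275 to 848 in A8, with 199 to 848 (median 330.5) in all 34 libraries with the SPOC mutation and 71.4 to 208 (median 149) in the 24 without it, and counts do not show the mutation itself. One marker gene of the lists is not reported here.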

Additional observations from a re-analysis of the deposited data

Results flagged for a closer look

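The level of chromosome 8 in DelPID replicate 1 on NPC day 6 was 48050 counts per 1000000 autosomal counts, apart from the 52200 to 52590 of the other 3 DelPID libraries by more of the range than Dixon's limit for 4 samples allows. It is the shallowest library, at 2292261 counts. Among 20 sets of 4 to 10 libraries tested for level and Dom share it was the only one so far apart, and chance gives about 1 in 20.

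The G3 to A8 difference in total counts of 1190005I06Rik was larger in NPC than in ES cultures, by -2.06 on the log2 scale (SE 0.50, adjusted p = 0.049, edgeR's quasi-likelihood test). G3 had 2.87 and 2.77 CPM in ES and 2.31 and 2.37 CPM in NPC cultures, and A8 had 4.68 and 5.67, then 17.0 and 15.9 CPM. It was the 1 chromosome 8 gene called in this comparison.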

How the results depend on the processing

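Most results changed little. For Dom share in G3, minimums of 10 and 20 allele-assigned fragments, limma on the log2 odds, leaving out the DelPID libraries and, against A8, fitting the 8 DelPID_SPOC libraries alone kept the counts of genes called within 1.5 times. So did RLE scaling, TMM without chromosome 8, DESeq2, no filter and leaving out the DelPID libraries for the genes that fell in total counts. Leaving out each G3 and A8 library in turn gave 480 to 492 genes higher and 0 to 1 lower in Dom share against A8, and 535 to 549 higher against the others. In total counts it gave 301 to 336 lower and 3 to 12 higher against A8, and 406 to 443 lower and 3 to 9 higher against the others. The 1 gene lower in Dom share appeared without the G3 library of NPC day 6, and both low counts of rises came without a G3 ES library. The 8 DelPID_SPOC libraries alone gave 13 genes higher in total against A8. In PCGF35, the replicate block gave 3 chromosome 8 genes higher and 2 lower in total counts and 0 in Dom share, and changed no other chromosome 8 call. Over all genes it gave 111 higher and 77 lower in total counts, against 2 and 4 without the block. In Dom share it gave 40 higher and 7 lower over all genes, against 28 and 0. Without the 10 genes with most fragments, an alternative added after seeing the data, the mean Dom share was 51.2% in G3, 35.85% in A8 and 36.0% outside G3. The cause of these changes was not tested. Of 3008 values of 59 named genes under the alternatives, 2898 kept their call, 77 lost it, 33 gained one and none reversed. Of 3 groups by fragment count, the lowest had 121 of 195 genes called in Dom share and the highest 195 of 195.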
